A study of Mus musculus with 10 samples.

Results

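The 10 genes described here were picked from earlier results of these arrays because their array signals differed widely between NOD and B10 mice. They are the peptide transporter gene Slc15a2, the nucleoside transporter gene Slc28a2b, and Cpm, Pdk1, Crbn, Acss2, Ddx43, Ccnb1ip1, Zfp979 and Cln8, out of 19938 genes measured. Each was found by its symbol and is read by 1 probe set of its own. The strain differences are thus what chose the genes, and they are given as a description, without a test. The neighbouring and related genes did not enter the choice and were tested. The changes with stimulation were tested too, and they are other contrasts of the same arrays that chose the genes.

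CD4-positive spleen cells were taken with magnetic beads from female mice of 8 weeks and measured on 10 Affymetrix arrays. NOD mice (genotype NODk in the labels) gave 2 arrays of cells stimulated for 4 hours with PMA at 10 ng/ml and ionomycin at 1 uM (T1) and 3 arrays of unstimulated cells (T0). B10 mice (genotype B10Br) likewise gave 2 arrays at T1 and 3 at T0. The replicates are labelled biological, but which animal or pool each came from is not given, so p-values measure the spread between these samples. The protocol can be read as 4 hours of culture for the T0 cells too. The labels name no transgene, deletion or other treatment. The labels number the T1 arrays 2 and 3, and no array numbered 1 was used at T1. All levels are log2 intensities, and their precision is limited by the small number of arrays.

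NOD is an inbred strain known for autoimmune diabetes, in which CD4 T cells take part, and B10 is a strain that does not develop it. The genotype labels NODk and B10Br do not say whether the mice used here develop diabetes. The arrays are therefore not read here as a comparison of diabetes risk. Each inbred strain is homozygous at nearly all loci, and geneticists separate effects of a gene's own surroundings (cis) from those of loci elsewhere (trans). An array comparison of 2 strains does not separate them. How far sequence variants between the strains alter the binding of the probes was not tested. PMA and ionomycin act on protein kinase C and calcium and so stand in for T cell receptor signals.

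Markers of CD4 T cells were high on all arrays and did not pass between strains, but markers of other cells differed. With limma and Benjamini-Hochberg adjustment, CD4 T cell markers (7 measured) had 0 calls between strains at T1 and 0 at T0 (unadjusted counts at p under 0.05 of 3 and 1). Of 5 measured erythroid markers, 1 was higher in NOD at T1 and 5 at T0. Their mean log2 level per array was 10.02 to 10.49 in NOD against 7.42 to 9.21 in B10 at T1, and 9.87 to 10.43 in NOD against 7.07 to 9.15 in B10 at T0. Of 9 monocyte and macrophage markers, 1 was higher in NOD at T1 and 6 at T0. Their mean level was 6.80 to 7.08 in NOD against 6.46 to 6.60 in B10 at T1, and 8.38 to 8.60 in NOD against 7.54 to 7.98 in B10 at T0. Of 8 neutrophil markers, 0 passed at T1 by limma (0 had an unadjusted p under 0.05) and 3 were higher in NOD at T0. Some markers ran the other way. Of 6 NK cell markers, 1 was lower in NOD at T1 and 2 at T0, with Klrb1c at -1.22 ± 0.09 at T0 (adjusted p = 1.15e-05). Of 2 CD8 T cell markers, Cd8b1 was lower at T0 (-0.49, adjusted p = 0.0305). Of 8 B cell markers, Cd79a was lower at T1 (-0.93, adjusted p = 0.00587) and Cr2 was higher at T0 (1.00, adjusted p = 0.00333). The erythroid level thus separates the strains on every array, and its part in a strain difference cannot be told apart from strain itself. In such bulk samples, fewer cells of a type and less RNA per cell cannot be told apart.

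The genes are not neighbours. In the RefSeq gene table (assembly GRCm38.p6, used for gene order since the arrays' values name no assembly) they lie on 8 chromosomes. Slc15a2 is on chromosome 16, Cpm on 10, Crbn on 6, Ddx43 on 9, Ccnb1ip1 on 14, Zfp979 on 4 and Cln8 on 8. Chromosome 2 carries 3 of them, Pdk1, Slc28a2b and Acss2, so the set is not wholly without linkage. Between Pdk1 and Slc28a2b lie 592 measured genes, and between Slc28a2b and Acss2 lie 315.

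Promoter sequences of 9 of the 10 genes were at hand from RefSeq (build GRCm38.p6, the sequence of a C57BL/6J mouse). The 250 bases before the annotated start are shown for 4 genes. Cpm and Crbn are shown because their levels ran most alike of all pairs of the 10, Slc28a2b because it was strongly lower in NOD, and Ddx43 because it ran the other way between strains. Capitals mark matches, on either strand, to any of 9 motifs: AP-1 (TGANTCA), CRE (TGACGTCA), the NFAT core (TGGAAA), NF-kB (GGGA, any 4 bases, then CC), the sterol element (TCACNCCAC), the E-box (CACGTG), the TATA box (TATAAA), the CCAAT box and the GC-box (GGGCGG).
Cpm (chr10:117629250-117629499, plus strand): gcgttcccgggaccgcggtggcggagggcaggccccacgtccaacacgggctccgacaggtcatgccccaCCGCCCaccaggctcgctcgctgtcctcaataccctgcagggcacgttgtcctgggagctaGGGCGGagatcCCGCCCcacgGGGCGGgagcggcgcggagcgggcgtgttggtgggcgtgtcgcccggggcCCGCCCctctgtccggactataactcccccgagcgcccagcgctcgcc
Crbn (chr6:106800088-106800337, minus strand): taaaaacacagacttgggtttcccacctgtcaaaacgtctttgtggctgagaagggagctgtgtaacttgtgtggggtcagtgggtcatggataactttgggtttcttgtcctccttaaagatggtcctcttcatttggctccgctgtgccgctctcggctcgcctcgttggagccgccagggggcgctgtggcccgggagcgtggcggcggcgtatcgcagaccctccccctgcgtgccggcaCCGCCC
Slc28a2b (chr2:122484691-122484940, plus strand): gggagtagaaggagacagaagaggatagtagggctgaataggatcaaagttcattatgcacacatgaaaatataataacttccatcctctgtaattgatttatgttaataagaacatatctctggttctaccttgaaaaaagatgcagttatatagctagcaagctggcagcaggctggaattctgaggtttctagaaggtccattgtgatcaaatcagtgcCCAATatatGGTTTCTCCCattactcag
Ddx43 (chr9:78395527-78395776, plus strand): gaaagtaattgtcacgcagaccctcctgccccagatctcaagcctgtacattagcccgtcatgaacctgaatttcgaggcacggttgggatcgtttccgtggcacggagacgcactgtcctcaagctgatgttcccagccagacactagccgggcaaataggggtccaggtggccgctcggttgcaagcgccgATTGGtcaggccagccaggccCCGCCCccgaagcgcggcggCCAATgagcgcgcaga

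Cpm held 5 GC-box matches and Crbn 1, and both windows were rich in G and C (74.4% and 60.4%, against a median of 52.4% over 32851 promoter windows). The Slc28a2b window held 1 NF-kB match and 1 CCAAT match at 38.4% G and C. The Ddx43 window held 2 CCAAT matches and 1 GC-box match. These letters are common: a GC-box stands in 32.7% of all windows, CCAAT in 33.8% and the NF-kB letters in 17.6%. The other motifs stand in 6.75% (AP-1), 1.55% (CRE), 18.6% (NFAT core), 1.05% (sterol element), 6.02% (E-box) and 12.4% (TATA) of windows. Matches overlap none of each other in the 4 windows shown, and a match is only a run of letters.

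Slc15a2, Slc28a2b, Cpm, Pdk1, Crbn and Acss2 were lower in NOD cells, both with and without stimulation, and Ddx43, Ccnb1ip1, Zfp979 and Cln8 were higher. At T1 no array of NOD overlapped any array of B10 for all 10 genes, and the same held at T0. Over all genes, 41.8% show no such overlap at T1 and 22.8% at T0. By limma's call (adjusted p under 0.05), 3.6% of all genes differ at T1 (1.77% higher and 1.83% lower in NOD) and 5.79% at T0 (3.44% higher and 2.35% lower). Since large strain differences chose the genes, nothing is read from these shares.

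**Figure D1:**
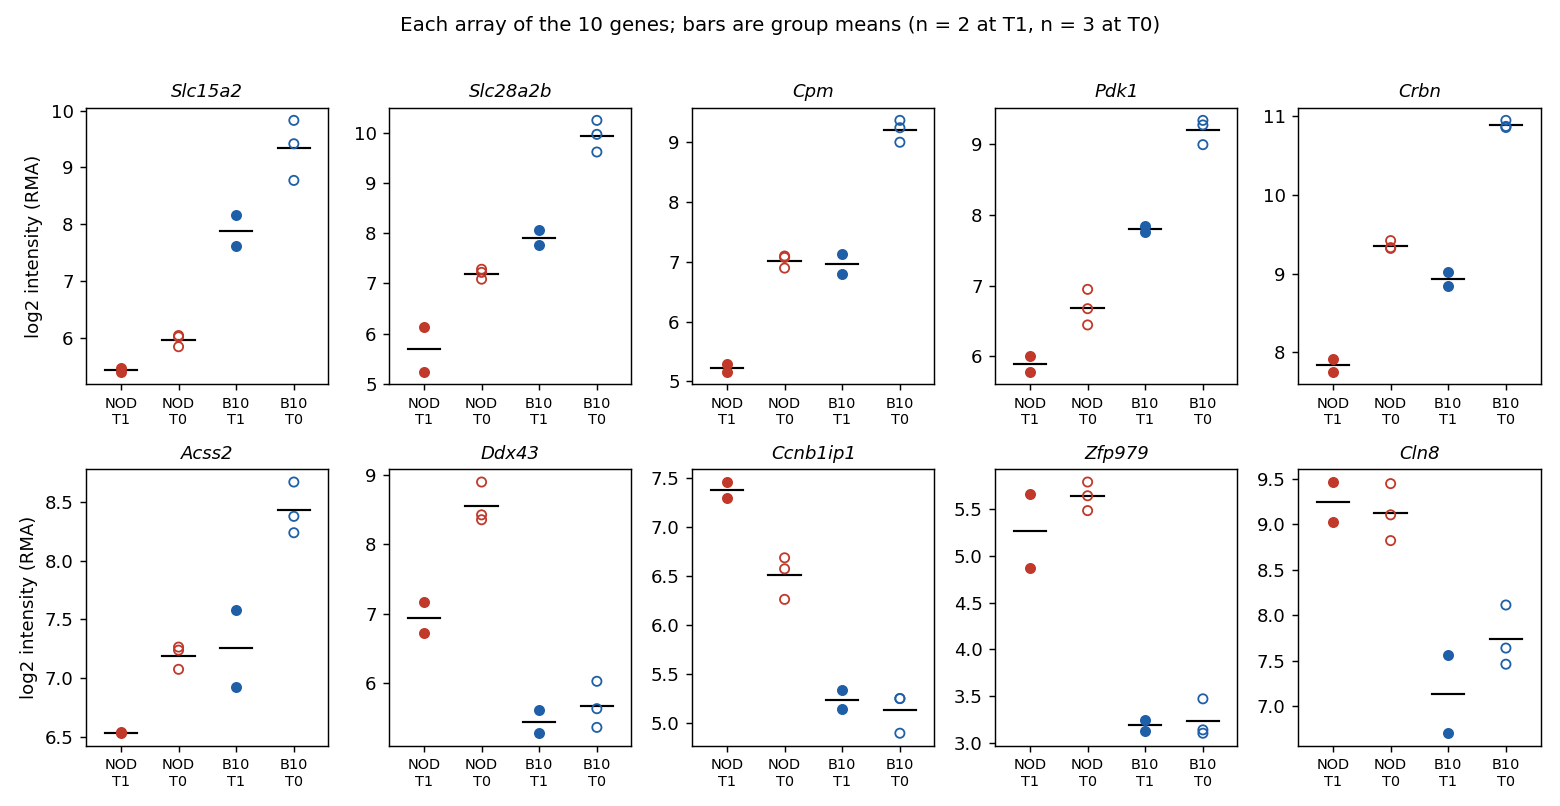
Log2 intensity of each of the 10 arrays (vertical axis, a scale of its own for each gene) for the 6 genes lower in NOD and then the 4 higher in NOD. Filled points are stimulated and open points unstimulated arrays, red is NOD and blue B10, and bars are group means. For every gene the NOD points lie apart from the B10 points of the same state.

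Slc15a2 encodes PEPT2, which carries short peptides into cells along with protons. At T1 its log2 level was 5.47 and 5.40 on the NOD arrays against 8.16 and 7.61 on the B10 arrays. At T0 it was 6.01, 5.84 and 6.04 in NOD against 8.77, 9.83 and 9.41 in B10. The NOD arrays were low and close together, while the B10 arrays spread over more than 1 log2 unit at T0. NOD minus B10 was -2.45 ± 0.26 at T1 and -3.37 ± 0.21 at T0 (limma SE, n = 2 arrays a group at T1 and n = 3 at T0). The T0 difference is a 10.4-fold lower level in NOD. By absolute difference it ranked 12 at T1 and 3 at T0 of 19938 genes.

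Slc28a2b is a relative of Slc28a2, which encodes a sodium-driven carrier of purine nucleosides. At T1 its level was 6.13 and 5.24 in NOD against 7.75 and 8.06 in B10. At T0 it was 7.08, 7.22 and 7.28 in NOD against 9.96, 9.61 and 10.24 in B10. The 2 stimulated NOD arrays were far apart for this gene, yet both lay below the B10 arrays. The NOD minus B10 difference was -2.22 ± 0.25 at T1 and -2.75 ± 0.20 at T0.

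Cpm encodes carboxypeptidase M, a membrane enzyme that trims a basic residue from the end of peptides. At T1 it read 5.29 and 5.16 in NOD against 6.79 and 7.12 in B10. At T0 it read 7.09, 7.07 and 6.89 in NOD against 8.99, 9.23 and 9.36 in B10. The stimulated B10 arrays thus lay about where the unstimulated NOD arrays did. The strain difference (NOD minus B10) was -1.73 ± 0.15 at T1 and -2.18 ± 0.12 at T0.

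Pdk1 encodes a pyruvate dehydrogenase kinase, which switches off the enzyme complex that feeds pyruvate into mitochondrial oxidation. Its level at T1 was 5.785 and 6.004 in NOD against 7.76 and 7.85 in B10. Its level at T0 was 6.95, 6.67 and 6.44 in NOD against 8.99, 9.27 and 9.34 in B10. Every B10 array, stimulated or not, lay above every NOD array. The strains differed, NOD minus B10, by -1.91 ± 0.16 at T1 and -2.51 ± 0.13 at T0.

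Crbn encodes cereblon, the substrate receptor of a CUL4 ubiquitin ligase and the target of thalidomide and related drugs. Stimulated arrays read 7.91 and 7.76 in NOD against 8.85 and 9.02 in B10. Unstimulated arrays read 9.42, 9.33 and 9.32 in NOD against 10.86, 10.87 and 10.95 in B10. Of the 10 genes it had the tightest replicates, with a pooled SD within groups of 0.080, against up to 0.38 for Cln8. Its NOD minus B10 difference was -1.10 ± 0.11 at T1 and -1.54 ± 0.09 at T0.

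Acss2 encodes the acetyl-CoA synthetase of nucleus and cytosol, which makes acetyl-CoA from acetate. At T1 its values were 6.54 and 6.53 in NOD against 6.93 and 7.58 in B10. At T0 its values were 7.26, 7.07 and 7.24 in NOD against 8.38, 8.24 and 8.67 in B10. The T1 difference was the smallest of the 10, -0.72 ± 0.19, and the arrays came within 0.39 of each other. It rested on B10_T1 replicate 3: without that array it was -0.39, and without B10_T1 replicate 2 it was -1.05. At T0 it was -1.24 ± 0.15. With an erythroid covariate (the mean of Alas2, Klf1 and Car2 on each array), the differences were -1.24 at T1 and -1.82 at T0.

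Ddx43 encodes a DEAD-box RNA helicase known mainly from testis and tumours. At T1 it read 7.17 and 6.72 in NOD against 5.61 and 5.28 in B10. At T0 it read 8.90, 8.42 and 8.35 in NOD against 6.03, 5.64 and 5.37 in B10. All NOD arrays lay above all B10 arrays. NOD minus B10 was 1.49 ± 0.23 at T1 and 2.88 ± 0.19 at T0, and the T0 value was the widest among the 4 genes higher in NOD.

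Ccnb1ip1 encodes HEI10, which acts in crossing over at meiosis. At T1 its level was 7.46 and 7.30 in NOD against 5.34 and 5.14 in B10. At T0 it was 6.69, 6.26 and 6.58 in NOD against 5.25, 5.25 and 4.90 in B10. Here the stimulated NOD arrays were the highest of all. In NOD minus B10 terms this was 2.14 ± 0.16 at T1 and 1.37 ± 0.13 at T0.

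Zfp979 is a KRAB zinc finger gene, also listed as Ssm1b, a strain-specific modifier of transgene methylation. It read 5.67 and 4.88 in NOD against 3.24 and 3.13 in B10 at T1. It read 5.48, 5.64 and 5.79 in NOD against 3.10, 3.14 and 3.47 in B10 at T0. The B10 values lay near the bottom of the scale, where the lowest value of the whole table is 2.11. NOD minus B10 was 2.09 ± 0.21 at T1 and 2.40 ± 0.17 at T0. A second probe set, not used in the choice, carries 6 symbols, Zfp979 among them. It averaged 5.34 ± 0.11 in NOD and 4.12 ± 0.04 in B10 at T1 (SD, n = 2 each). At T0 it averaged 5.38 ± 0.06 in NOD and 4.23 ± 0.09 in B10 (SD, n = 3 each). In limma's fit to every probe set, its NOD minus B10 difference was 1.22 ± 0.10 at T1 and 1.15 ± 0.09 at T0 (SE). No p-value is given, since this probe set reads a chosen gene on the same arrays. It cannot say which of the 6 genes differed.

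Cln8 encodes a membrane protein of the endoplasmic reticulum that passes lysosomal enzymes on to the Golgi, and its loss causes the motor neuron degeneration of mnd mice. At T1 its level was 9.03 and 9.46 in NOD against 6.71 and 7.57 in B10. At T0 it was 9.10, 8.82 and 9.45 in NOD against 7.46, 7.64 and 8.11 in B10. In both states replicate 3 was the highest B10 array. The NOD minus B10 difference was 2.11 ± 0.28 at T1 and 1.38 ± 0.23 at T0. With the erythroid covariate it was 1.36 at T1 and 0.54 at T0, a larger shift than for any other of the 10 genes.

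The 10 differences kept their sign between states but not their size. For 8 genes the absolute log2 difference was smaller at T1 than at T0, among them all 6 genes lower in NOD. It was larger at T1 for Ccnb1ip1 (156% of the T0 difference) and Cln8 (153%). It was 51.9% for Ddx43 and 58.3% for Acss2, and between 71.7% and 86.8% for the other genes. The change of the difference (its value at T1 minus that at T0) was -1.38 ± 0.30 for Ddx43, 0.93 ± 0.34 for Slc15a2 and 0.77 ± 0.21 for Ccnb1ip1, in log2 units. Zfp979 had the smallest, -0.32 ± 0.27. These changes are built from the differences that chose the genes and were not tested. At T1 the NOD means of Slc15a2, Slc28a2b, Cpm and Pdk1 were 5.44, 5.69, 5.23 and 5.89, below the array medians (6.18 to 6.23). How far such low levels narrowed the differences was not tested.

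**Figure D2:**
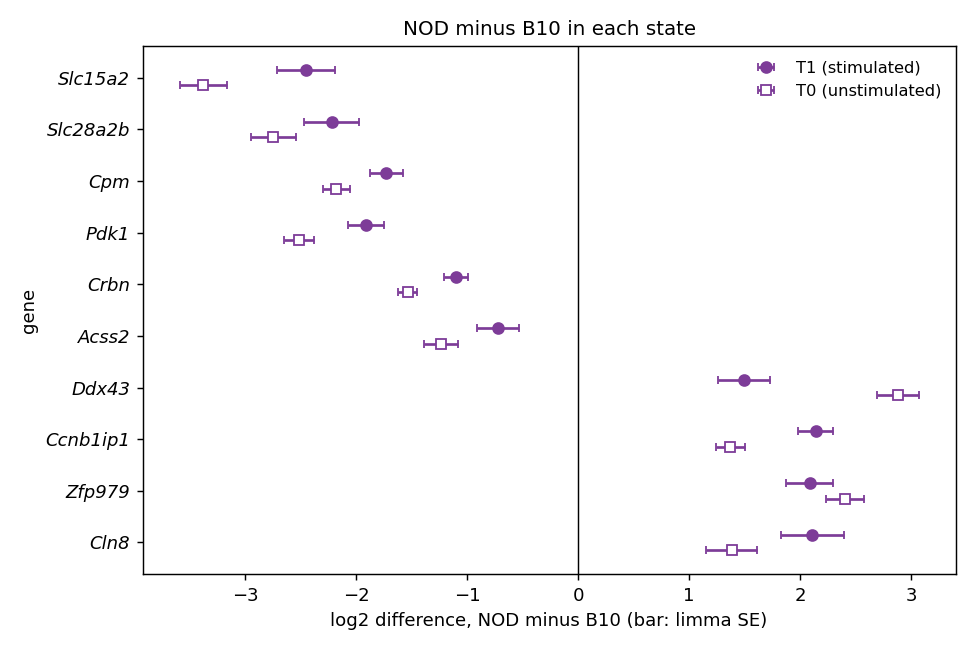
NOD minus B10 log2 difference of each gene (horizontal axis) at T1 (filled circles) and at T0 (open squares), with limma's standard error as bars. Genes left of 0 are lower in NOD, with Slc15a2 at -2.45 at T1 and -3.37 at T0, and genes right of 0 are higher in NOD.

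Stimulation lowered most of these genes. In NOD, 6 of the 10 fell and 1 rose (limma, adjusted p under 0.05), and in B10, 6 fell and 0 rose (7 of the 10 had an unadjusted p under 0.05 in B10). Over all genes, 19.5% fell in NOD and 18.1% in B10, and 16.1% rose in NOD and 13.7% in B10. Of the 8 with a mean level above the median of all genes, 6 fell in each strain. Beside these, 3673 of all 9969 such genes fell in NOD and 3441 in B10. The median change of the 10 was -0.73 in NOD and -1.29 in B10, against 0.081 and 0.031 over all genes. The T0 and T1 arrays entered both these changes and the strain differences that chose the genes.

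Markers of several cell types fell along with them. Of 7 CD4 T cell markers, 4 fell in each strain and 1 rose in NOD, and Cd4 itself changed by -1.72 in NOD and -1.46 in B10. Of 9 monocyte and macrophage markers, 8 fell in each strain. Of 8 B cell markers, 6 fell in NOD, and 4 fell and 1 rose in B10, with Cd79b at -3.78 in NOD and -3.57 in B10. Of 8 neutrophil markers, 6 fell in NOD and 4 in B10. The part of these cell types in the fall of the 10 genes was not tested.

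All 6 genes lower in NOD fell in B10, and 5 of them fell in NOD as well, while Slc15a2 did not pass there in the fit to all arrays. Over all genes, 15.7% fell in both strains. Cpm fell most, by 1.79 ± 0.13 in NOD (adjusted p = 3.79e-07) and by 2.24 ± 0.13 in B10 (adjusted p = 6.09e-08), a 3.46-fold and a 4.72-fold fall. Crbn fell by 1.52 ± 0.10 in NOD (adjusted p = 1.22e-07) and fell by 1.96 ± 0.10 in B10 (adjusted p = 1.77e-08). For both genes the stimulated arrays lay more than 1 log2 unit below the unstimulated ones of the same strain.

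Slc28a2b fell by 1.51 ± 0.23 in NOD (adjusted p = 0.000161) and fell by 2.03 ± 0.23 in B10 (adjusted p = 1.24e-05). Pdk1, whose kinase product restrains pyruvate oxidation, fell by 0.79 ± 0.15 in NOD (adjusted p = 0.000945) and fell by 1.40 ± 0.15 in B10 (adjusted p = 8.27e-06). Acss2 fell by 0.66 ± 0.17 in NOD (adjusted p = 0.00937) and fell by 1.17 ± 0.17 in B10 (adjusted p = 0.000131). Slc15a2 fell by 1.45 ± 0.24 in B10 (adjusted p = 0.00034), and its change in NOD was -0.53 ± 0.24 (adjusted p = 0.109), where its level was already low at T0. That NOD change did pass without B10_T0 replicate 1 (-0.53, adjusted p = 0.029), with only the NOD arrays in the fit (adjusted p = 0.00506) and with a replicate block (-0.50, adjusted p = 0.00807). The T1 and T0 arrays did not overlap for any of the 6 genes in either strain, which holds for 56.0% of all genes in NOD and 52.4% in B10.

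The 4 genes higher in NOD responded unlike each other. Ddx43 fell by 1.61 ± 0.21 in NOD (adjusted p = 4.96e-05), and its change in B10 was -0.23 ± 0.21 (adjusted p = 0.495). Ccnb1ip1 was the one gene of the 10 that rose, by 0.87 ± 0.15 in NOD (adjusted p = 0.000404), with a change of 0.10 ± 0.15 in B10 (adjusted p = 0.677). Whether these responses differ between strains was not tested, for the reason given above. In B10 both genes lay below the array medians (6.18 to 6.23), with means of 5.45 at T1 and 5.68 at T0 for Ddx43. The B10 means of Ccnb1ip1 were 5.24 at T1 and 5.14 at T0. The part of such low levels in the small B10 changes was not tested. The changes of Zfp979 were -0.37 ± 0.19 in NOD (adjusted p = 0.162) and -0.05 ± 0.19 in B10 (adjusted p = 0.893). Without NOD_T1 replicate 2 Zfp979 passed in NOD, at -0.76 (adjusted p = 0.00394). Those of Cln8 were 0.12 ± 0.26 in NOD (adjusted p = 0.743) and -0.60 ± 0.26 in B10 (adjusted p = 0.104). Without B10_T1 replicate 3 Cln8 passed in B10, at -1.03 (adjusted p = 0.0121).

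**Figure D3:**
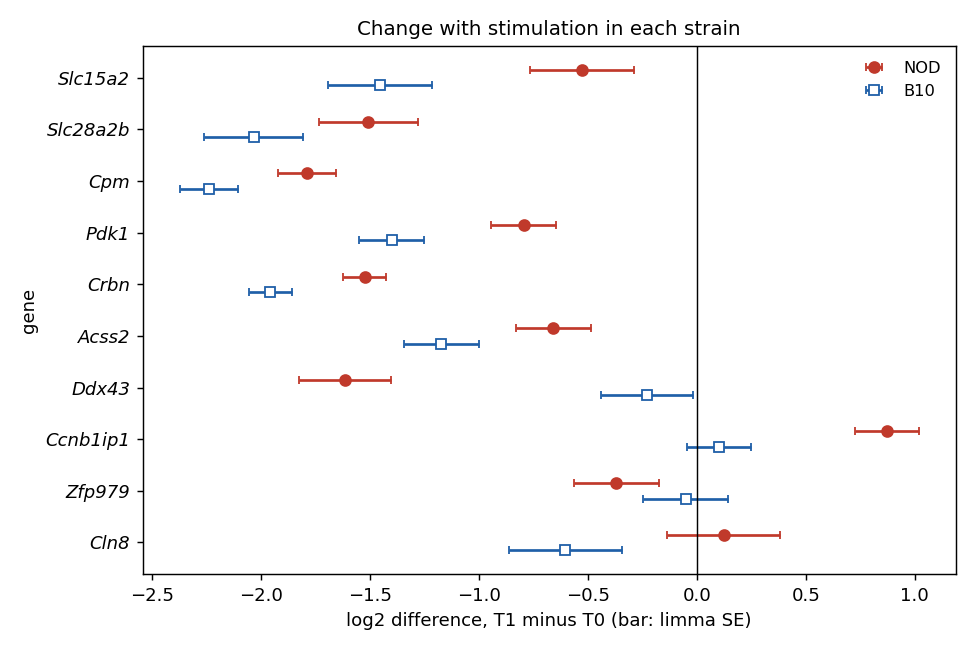
Change with stimulation (T1 minus T0, log2, horizontal axis) of each gene in NOD (red circles) and in B10 (blue open squares), with limma's standard error as bars. The 6 genes lower in NOD all lie left of 0, from -1.79 to -0.53 in NOD and from -2.24 to -1.17 in B10, while among the 4 higher in NOD only Ddx43 (-1.61) and Ccnb1ip1 (0.87) in NOD passed the test.

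Next, the genes beside each of the 10 were examined, since they share its stretch of chromosome. The 5 nearest measured genes on each side made 100 neighbours. Of these, 6 differed between strains at T1 (3 higher and 3 lower in NOD) and 10 at T0 (7 higher and 3 lower), that is 6.0% and 10.0%, against 3.6% and 5.79% of all genes. In both states and the same direction, 4 neighbours differed (4.0%), against 1.79% of all genes. With the erythroid covariate 2 of the 100 neighbours passed at T1 and 3 at T0, beside 128 and 136 of all 19938 genes. The T1 count of neighbours fell without NOD_T1 replicate 3 or without B10_T1 replicate 2, as did the count over all genes. The median difference of the neighbours was -0.044 at T1 and -0.019 at T0, against 0.0091 and -0.015 over all genes.

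The 4 neighbours that passed in both states stand beside 3 of the genes. Slc28a2, next to its relative Slc28a2b, was lower in NOD. Its levels at T1 were 7.09 and 6.46 in NOD against 7.62 and 7.75 in B10. At T0 they were 8.65, 8.64 and 8.61 in NOD against 9.61, 9.39 and 9.62 in B10. NOD minus B10 was -0.91 ± 0.17 at T1 (limma adjusted p = 0.0117) and -0.91 ± 0.14 at T0 (adjusted p = 0.00223), so both members of this pair of carriers were lower in NOD. How far the probes of one gene read transcripts of the other was not tested. The T1 call ended without NOD_T1 replicate 3 (-0.59, adjusted p = 0.0645), without B10_T1 replicate 2 (-0.97, adjusted p = 0.0621) and without B10_T1 replicate 3 (-0.85, adjusted p = 0.0508). With the erythroid covariate neither value passed (adjusted p = 0.0942 at T1 and 0.0791 at T0).

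Bloc1s6, which encodes a subunit of a complex that sorts cargo to lysosome-related organelles, lies on the other side of Slc28a2b and went the opposite way. It was higher in NOD by 1.03 ± 0.14 at T1 (limma adjusted p = 0.0024) and by 0.80 ± 0.12 at T0 (adjusted p = 0.00187). Its lowest NOD array read 7.47 at T1 and 7.47 at T0, against a highest B10 array of 6.65 at T1 and 6.90 at T0. Gatm, which makes the precursor of creatine, lies between them and differed at T0 alone by this test (0.97 ± 0.13, adjusted p = 0.00098, with 0.23 ± 0.16 and adjusted p = 0.539 at T1). Gatm did not pass at T0 with the erythroid covariate (0.86, adjusted p = 0.121).

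Zfp991, another zinc finger gene of the stretch around Zfp979, was higher in NOD as Zfp979 was. Its levels at T1 were 6.88 and 6.94 in NOD against 5.42 and 5.11 in B10. At T0 they were 7.08, 6.76 and 6.61 in NOD against 5.43, 5.84 and 5.45 in B10. The groups stayed apart in both states, with NOD minus B10 at 1.64 ± 0.18 at T1 (limma adjusted p = 0.000314) and 1.25 ± 0.14 at T0 (adjusted p = 0.00033). Such zinc finger genes are near copies of each other, so cross-reading between their probes was not tested and their values are uncertain to that extent. Zfp600 was higher in NOD by 0.74 ± 0.15 at T0 (adjusted p = 0.0128), with 0.66 ± 0.19 at T1 (adjusted p = 0.0801). Its T0 call ended without NOD_T0 replicate 3 (0.59, adjusted p = 0.0605), without B10_T0 replicate 2 (0.70, adjusted p = 0.0575) and with the erythroid covariate (0.505, adjusted p = 0.59). Zfp933, on the other side of Zfp979, was higher in NOD by 0.76 ± 0.14 at T0 (adjusted p = 0.00821), with -0.04 ± 0.18 at T1 (adjusted p = 0.947).

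Kbtbd11, a BTB and kelch domain gene near Cln8, was lower in NOD while Cln8 was higher. It differed by -1.18 ± 0.14 at T0 (limma adjusted p = 0.000325). At T1 the difference was -0.66 ± 0.17 (adjusted p = 0.0496), a call that ended on leaving out most single arrays (values -0.92 to -0.40) and with the mean of the gene's probe sets (-0.35, adjusted p = 0.162). With the erythroid covariate it was -0.56 at T1 (adjusted p = 0.411) and -1.08 at T0 (adjusted p = 0.0563).

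Beside Crbn, the tRNA-repair enzyme gene Trnt1 read 8.12, 7.90 and 8.10 in NOD against 9.13, 9.23 and 9.33 in B10 at T0. Its difference was -1.19 ± 0.09 at T0 (limma adjusted p = 1.4e-05) and -0.42 ± 0.12 at T1 (adjusted p = 0.0676). The other neighbours that passed in 1 state were AA467197 near Slc28a2b (-0.69, adjusted p = 0.0324) and Cntn6 near Crbn (0.66, adjusted p = 0.0226) at T1, and Map3k20 near Pdk1 (0.67, adjusted p = 0.0306) and Slc17a5 near Ddx43 (0.39, adjusted p = 0.0193) at T0. Slc15a2, Cpm, Ccnb1ip1 and Acss2 had 0 of their 40 neighbours past limma's threshold in either state, with unadjusted p under 0.05 for 9 at T1 and 2 at T0.

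**Figure D4:**
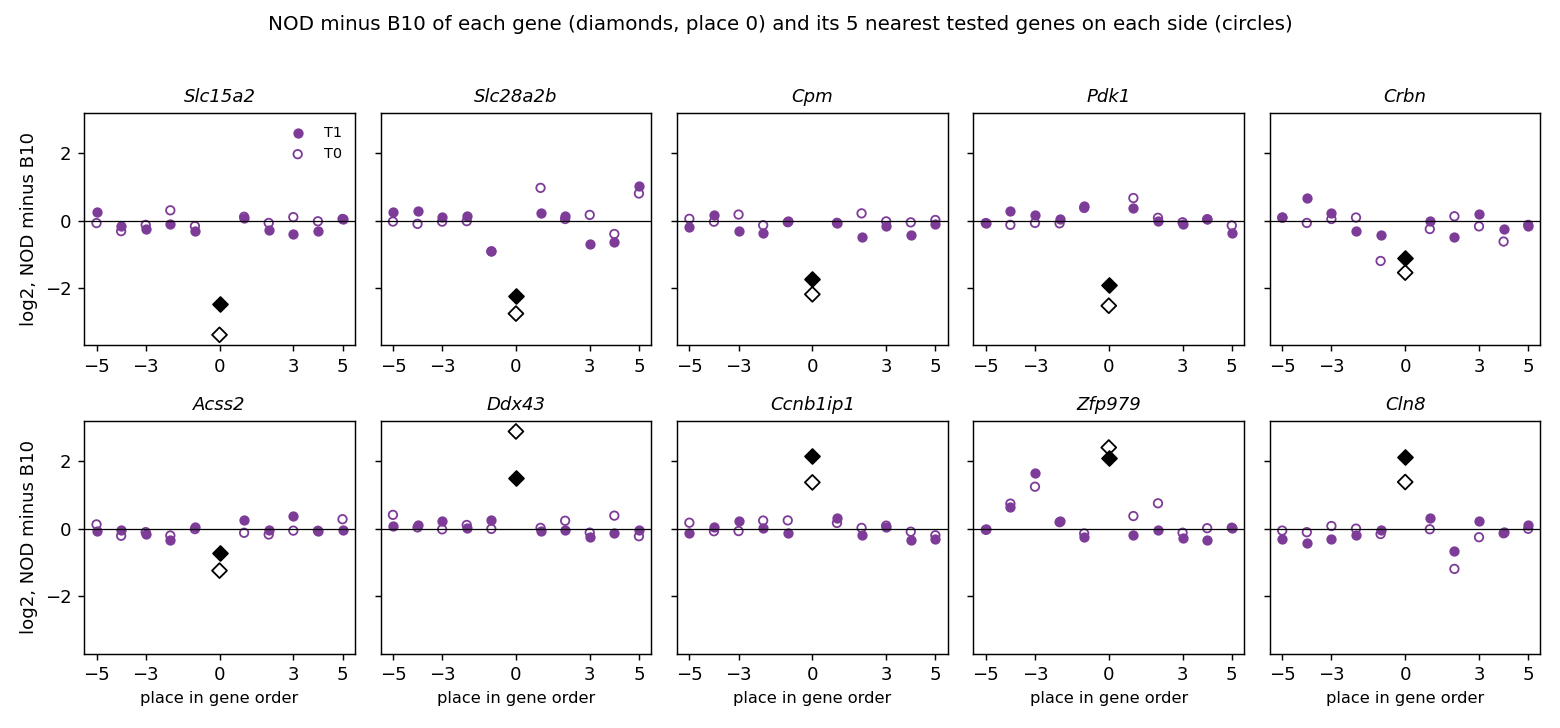
NOD minus B10 log2 difference (vertical axis) of each of the 10 genes (black diamonds at place 0) and of its 5 nearest measured genes on each side in gene order (circles, place counted from the gene), filled at T1 and open at T0. The neighbours' median lies near 0 (-0.044 at T1 and -0.019 at T0), and the 4 that passed in both states are Slc28a2 and Bloc1s6 near Slc28a2b, Zfp991 near Zfp979 and Kbtbd11 near Cln8.

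Relatives of the 10 genes, from 11 lists of families and pathways, were measured too, and changes are given in log2 units. Of 139 measured relatives, 7 differed at T1 (4 higher and 3 lower in NOD, 5.04%) and 12 at T0 (8 higher and 4 lower, 8.63%), against 3.6% and 5.79% of all genes. In stimulation, 63 relatives passed in NOD (30 rose and 33 fell, 45.3%) and 70 in B10 (37 rose and 33 fell, 50.4%), against 35.5% and 31.8% of all genes. Among genes with a mean level above the median of all genes, 63 of 96 relatives passed in NOD and 69 in B10. Beside these, 6039 and 5931 of all 9969 such genes passed. Some genes, such as Slc28a2 and Zfp991, count both as relatives and as neighbours. The strain counts were unsteady, as 1 relative passed at T1 without B10_T1 replicate 2 and 2 without NOD_T1 replicate 3. At T0, 7 passed without NOD_T0 replicate 1, without NOD_T0 replicate 3 or without B10_T0 replicate 2.

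Among carriers, 4 other peptide transporter genes and 7 nucleoside transporter genes were measured. Slc15a3, a peptide and histidine carrier of endolysosomes, rose by 1.18 ± 0.14 in NOD and 1.67 ± 0.14 in B10 (limma adjusted p = 2.34e-05 and 1.1e-06), while Slc15a4, a carrier of the same kind, fell in both strains (-0.90 in NOD and -0.78 in B10). Slc28a2 fell in both strains, by 1.85 in NOD and 1.85 in B10, as Slc28a2b did. The equilibrative carriers Slc29a1 and Slc29a2, which let nucleosides pass down their gradient, rose instead (1.19 and 0.91 in NOD, 1.17 and 0.74 in B10). Beside Cpm, 10 carboxypeptidase genes were measured, not all of them of its enzyme family. Of these, 2 rose and 2 fell in NOD, and 1 rose and 2 fell in B10. Cpd, a carboxypeptidase of the secretory pathway, rose by 1.62 in NOD and 1.72 in B10. Cpq fell by 1.26 in NOD and 0.82 in B10, and Agtpbp1 by 0.69 and 0.46, as Cpm did. Without both B10 arrays of replicate 3 the B10 changes were -0.70 for Cpq and -0.33 for Agtpbp1.

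Of 12 genes of the pyruvate dehydrogenase complex and its regulators, 1 rose and 3 fell in NOD, and 2 rose and 3 fell in B10. Pdk3, another kinase of the complex, fell by 0.74 in NOD and fell by 0.64 in B10 (limma adjusted p = 0.0025 and 0.00661). The B10 calls of Pdk3 and of Pdha1, the catalytic subunit, ended without both B10 arrays of replicate 3 (adjusted p = 0.113 and 0.0701), and that of Pdk3 without B10_T1 replicate 3 alone (adjusted p = 0.0663). Between strains 0 of the 12 passed limma's test (1 had an unadjusted p under 0.05 at T1 and 1 at T0). Pdk1 is a known target of the hypoxia factor HIF-1, and of 14 hypoxia-induced genes 6 rose and 2 fell in NOD while 7 rose and 2 fell in B10. Hk2, a hexokinase, rose by 2.32 in NOD and 2.35 in B10, and Adm, a vasoactive peptide gene, by 1.76 and 2.13, both opposite in direction to Pdk1. The 2 that fell, as Pdk1 did, were Bnip3 (-1.06 in NOD and -0.78 in B10) and Egln1 (-0.82 and -0.59).

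Of 17 measured genes of acetyl-CoA and fatty acid synthesis, 4 rose and 4 fell in NOD, and 5 rose and 5 fell in B10. Acss1, the mitochondrial counterpart of Acss2, fell by 1.91 in NOD and fell by 1.99 in B10. Slc25a1, the citrate exporter of mitochondria, rose by 1.43 in NOD and 1.42 in B10. Crat, carnitine acetyltransferase, was higher in NOD by 0.79 ± 0.14 at T1 (limma adjusted p = 0.0107) and by 0.66 ± 0.12 at T0 (adjusted p = 0.00578). Without NOD_T1 replicate 3 or B10_T1 replicate 2 the T1 call of Crat ended (adjusted p = 0.084 and 0.0885). With the erythroid covariate it did not pass (0.61 at T1 and 0.46 at T0, adjusted p = 0.256 and 0.479).

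Of 18 measured genes of the CUL4 ubiquitin ligases and of substrates of cereblon, 2 rose and 7 fell in NOD, and 3 rose and 6 fell in B10. Prkaa1, a catalytic subunit of the energy sensor AMPK, fell by 1.09 in NOD and fell by 0.93 in B10. Cul4b, a scaffold of the ligase, fell by 0.82 in NOD and fell by 0.83 in B10. Its sister Cul4a was higher in NOD by 0.85 ± 0.17 at T1 (limma adjusted p = 0.0158) and 0.77 ± 0.13 at T0 (adjusted p = 0.00555). With the erythroid covariate these were 0.49 and 0.37 and did not pass (adjusted p = 0.351 and 0.598), nor did the T1 value without NOD_T1 replicate 3 (0.69, adjusted p = 0.117) or B10_T1 replicate 2 (0.76, adjusted p = 0.13).

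Of 11 measured genes of the neuronal ceroid lipofuscinoses, lysosomal storage diseases that include the one caused by Cln8 loss, 7 fell in NOD and 6 in B10. Ctsd, a lysosomal protease, fell by 1.60 in NOD and fell by 1.81 in B10, and Ppt1, which removes fatty acids from proteins, fell by 1.68 in NOD and fell by 1.53 in B10. Cln8 passed in neither strain in the fit to all arrays without a block or covariate. Its fall in B10 did pass by limma with a replicate block (-0.74, adjusted p = 0.000758). It also passed there with the erythroid covariate (-0.73, adjusted p = 0.00327). Monocyte and macrophage markers averaged 6.94 at T1 and 8.51 at T0 in NOD, and 6.53 at T1 and 7.78 at T0 in B10, and their part in the fall of lysosomal genes was not tested.

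Of 27 measured DEAD-box helicases other than Ddx43, 12 rose and 5 fell in NOD, and 15 rose and 5 fell in B10. Between strains 0 of these passed limma's test, with an unadjusted p under 0.05 for 2 at T1 and 4 at T0. Ddx56 and Ddx51, helicases of ribosome assembly, rose by 1.57 and 1.30 in NOD and by 1.78 and 1.44 in B10. Ddx58, the RNA sensor RIG-I, fell by 1.63 in NOD and fell by 2.08 in B10. Of 13 meiotic crossover genes measured beside Ccnb1ip1, 1 fell in NOD and 2 in B10, among them the mismatch repair relative Msh5 (-0.36 in NOD and -0.47 in B10). The NOD call of Msh5 ended with scaling to the 75th percentile (-0.23, limma adjusted p = 0.0989). Its B10 change was -0.31 without both B10 arrays of replicate 3. Between strains 0 of the 13 passed limma's test, with an unadjusted p under 0.05 for 0 at T1 and 1 at T0. Of the 17 listed genes of the Zfp979 group, 6 had a probe set of their own, and Zfp991 was the one that passed in both states.

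The genes that ran most like each of the 10 over the 10 arrays were listed by Pearson's r, as a description. The arrays fall into strains and states, which every such r shares. Cpm and Crbn were each other's near match (r = 0.992), beside Trappc12 for Cpm (0.987) and Rundc3b for Crbn (0.992). Slc15a2 ran with Ifi206, an interferon-inducible gene on chromosome 1 (0.989), and Gimap5, a lymphocyte survival GTPase (0.987). Ifi206 differed by -1.51 at T1 and -2.38 at T0 (NOD minus B10). Pdk1 ran with Tasp1 (0.977), which lies on chromosome 2 too, and with Slc15a2 (0.977).

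Slc28a2b ran with Man2a2 (0.984) and Fam160b1 (0.982), and Acss2 with Trappc12 (0.979) and Tnfrsf1a (0.975). Of the genes higher in NOD, Ddx43 ran with Plaur (0.975) and with Cpne4 (0.974), which shares chromosome 9 with it. Ccnb1ip1 ran with BC018473 and Dennd5a (both 0.984), of which BC018473 differed by 5.26 at T1 and 3.42 at T0. Zfp979 ran with Cep290 (0.975) and with Tnfrsf14 on its own chromosome 4 (0.956), and Cln8 with Trak2 (0.987) and Scrn3 (0.984). Among the 10 genes themselves, r lay between 0.821 and 0.992 for the 6 lower in NOD and between 0.699 and 0.912 for the 4 higher in NOD, a likeness that the choice by strain difference fixes in part.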

How the data were processed

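RNA of CD4-positive spleen cells was measured in 10 samples, 1 array each. The deposited values are log2 intensities that the authors made with RMA in Affymetrix Power Tools, per the submitters' processing notes; versions and options are not given in the sources used here, and the log2 base was read from the values (2.11 to 14.92, array medians 6.18 to 6.23). RMA brings all arrays to 1 distribution, so changes are relative to it. Detection calls were not used here.

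Of 35486 probe sets, 21789 carry 1 symbol, and the one with the highest mean stood for each of 19938 genes. The 4 groups were given a mean each in 1 linear model of all 10 arrays, with limma 3.58.1 in R 4.3.3 (lmFit and eBayes, 6 residual and 6.3 prior degrees of freedom), two-sided, with Benjamini-Hochberg adjustment over all genes within a contrast and a threshold of 0.05. The genes, lists and tests were chosen with earlier results of these data known. Strain differences of the chosen genes carry no p-value. Named relatives and neighbours had to pass in both strain or both stimulation contrasts, at most the 4 largest a list (not all are described), and the markers and the neighbours that passed in 1 state were named after their values were seen. Bnip3 and Egln1 were named beyond the 4 largest of their list, to give the listed hypoxia genes that fell. The 2 genes of highest r were named for each of the 10. The procedure was tested on simulated data. Alternatives were another scaling (75th percentile), other probe sets, filters and variance settings, a replicate block, an erythroid covariate and leaving out arrays. The erythroid covariate was the mean of Alas2, Klf1 and Car2 alone, not of all the erythroid markers. Figures were drawn with matplotlib 3.10.9.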

Additional observations from a re-analysis of the deposited data

How the results depend on the processing

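All 10 genes kept the sign of their strain difference at T1 and at T0 under every alternative run. Leaving out arrays could not have changed a sign, since the arrays of the strains did not overlap for these genes. The genes were also chosen for large differences, so nothing is read from the kept signs. The count of the 10 that passed in stimulation stayed at 7 or 8 in NOD and 6 or 7 in B10 on leaving out single arrays. With a replicate block it was 8 in NOD, where Slc15a2 also passed (-0.50, adjusted p = 0.00807), and 7 in B10, where Cln8 also passed (-0.74, adjusted p = 0.000758). The main fit did not pair arrays by number, since same-numbered arrays of a strain ran alike only in part. The correlations of their deviations from group means were 0.413 and 0.404 in B10 but -0.014 and 0.219 in NOD. Between strains they ran from -0.219 to 0.114. The B10 arrays may thus be paired, which the replicate block allows for. A minimum change of 2-fold left 4 of the 10 in NOD, 2 neighbours at T1 and 3 at T0, 1 relative at T1 and 2 at T0, 29 relatives in NOD and 24 in B10 stimulation, and, over all genes, 1812 in NOD, 1876 in B10, 207 at T1 and 273 at T0. The erythroid covariate left 2 neighbours at T1 and 3 at T0, 1 relative at T1 and 1 at T0, and 128 of all genes at T1 and 136 at T0, against 718 and 1155; this covariate runs with strain. With only the arrays of the groups compared, 2 neighbours, 1 relative and 128 of all genes passed at T1, where a fit on 4 arrays has fewer degrees of freedom. With every probe set tested, 3 neighbours and 4 relatives passed at T1. Leaving out single arrays gave 2 to 9 neighbours at T1 and 7 to 10 at T0, 1 to 8 relatives at T1 and 7 to 14 at T0, and 184 to 889 of all genes at T1 and 571 to 1306 at T0. The lowest of these for all genes came without B10_T1 replicate 2 at T1 and without NOD_T0 replicate 3 at T0. Shifting the arrays to one 75th percentile moved the median over all genes to 0.21 for stimulation in NOD, against 0.081, with 5393 higher and 3145 lower against 3201 and 3884. It gave 397 higher and 269 lower in NOD at T1, against 353 and 365. The calls of the 10 genes in stimulation were the same under it. Only genes above the median of all genes were kept in another filter, which left 8 of the 10, without Zfp979 and Ccnb1ip1.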
